A study of Mus musculus with 40 samples.

Results

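Transcription factors of the mouse oocyte encoded by 10 genes were followed through the RNA libraries of the series: Figla, Nobox, Lhx8, Sohlh1, Sohlh2, Taf4b, Tbpl2, Foxo3, Obox1 and Obox5. A gene was matched to every transcript locus of the deposited RNA table that carried its symbol, overlapped it and lay on its strand. Of the 10 genes, 9 had a locus, 1 each, among 38540 loci in all, of which 15023 overlapped an annotated gene on the same strand. Obox1 had none, and 8 of the 9 loci reached a mean of at least 10 reads per 1000000 (RPM) over the 11 RNA libraries, as did 9091 loci of the whole table.

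The cells were germinal vesicle oocytes, the fully grown oocytes of the ovary before meiotic maturation, dissected by hand from mice 22 to 25 days old and pooled at 100 to 200 a sample. Besides controls there were oocytes that had lost G9a by conditional knockout (G9a cKO) and oocytes in which Glp was conditionally removed as well (G9a-Glp cDKO, shortened to cDKO). G9A, the product of Ehmt2, and GLP, the product of Ehmt1, place the repressive histone mark H3K9me2. RNA libraries comprised 3 controls and 3 G9a cKO whose titles begin with GKAO, and 3 controls and 2 cDKO whose titles begin with GKAQ, and each mutant was compared with the controls of its own prefix. What the prefixes stand for, the Cre line and the strain are not given in the sources used here. Nothing says that libraries came from separate animals, so the spread between these libraries may be technical. The model took the spread of a gene mostly from loci of like level (the variance trend), less from the gene's own libraries. The p-values rest on that shared spread, and a very small p does not measure how a gene varied between its own libraries. Fewer transcripts per oocyte and a different mix of oocytes cannot be told apart in pooled samples.

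These factors act in sequence as a follicle leaves its resting state and the oocyte grows. SOHLH1, SOHLH2 and FIGLA are basic helix-loop-helix proteins that bind DNA at the E-box, CANNTG, and NOBOX and LHX8 are homeobox proteins. Together they switch on genes of the growing oocyte, among them the zona pellucida genes. FOXO3 acts the other way, holding resting follicles until PI3K and AKT signalling expels it from the nucleus. TAF4B is a gonad-enriched subunit of the general factor TFIID, TBPL2 stands in for the TATA-binding protein TBP in growing oocytes, and the OBOX homeobox proteins are stored for the embryo and take part in starting its genome.

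The 250 bases before the annotated start are shown for the 3 genes whose RNA differed in cDKO because the E-box, the site of the helix-loop-helix members, can be counted there and the H3K9me2 readout given later covers the same starts. Sequences and positions are those of RefSeq on GRCm38.p6, written 5′ to 3′ on the strand of the gene, with each E-box (CANNTG, both strands) in capitals. They are Sohlh2 at chr3:55181794-55182043 on the plus strand, Tbpl2 at chr2:24096596-24096845 on the minus strand and Foxo3 at chr10:42276696-42276945 on the minus strand. The measured RNA loci begin before these annotated starts, at 55181818 for Sohlh2, 24096806 for Tbpl2 and 42278320 for Foxo3. The Foxo3 window lies wholly inside its locus, and the Sohlh2 and Tbpl2 windows mostly inside theirs. The windows therefore need not be the sequence before the start of the transcripts measured.
Sohlh2: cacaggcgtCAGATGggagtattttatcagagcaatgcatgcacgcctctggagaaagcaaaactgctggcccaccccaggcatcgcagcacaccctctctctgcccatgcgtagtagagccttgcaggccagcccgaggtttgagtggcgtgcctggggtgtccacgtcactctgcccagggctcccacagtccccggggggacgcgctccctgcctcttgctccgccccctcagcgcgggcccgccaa
Tbpl2: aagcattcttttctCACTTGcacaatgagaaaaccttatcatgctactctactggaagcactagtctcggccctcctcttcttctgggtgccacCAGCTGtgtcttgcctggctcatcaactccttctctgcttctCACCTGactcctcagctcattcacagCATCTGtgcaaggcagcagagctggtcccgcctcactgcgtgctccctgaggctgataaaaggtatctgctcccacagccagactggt
Foxo3: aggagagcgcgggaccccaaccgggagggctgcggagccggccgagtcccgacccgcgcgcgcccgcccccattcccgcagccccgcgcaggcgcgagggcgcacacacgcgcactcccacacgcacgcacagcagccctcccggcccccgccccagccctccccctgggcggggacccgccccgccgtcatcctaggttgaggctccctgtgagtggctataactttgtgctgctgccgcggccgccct

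The windows differ in make-up. The Sohlh2 window holds 1 E-box and 14 CpG dinucleotides, the Tbpl2 window 4 E-boxes and 3 CpG, and the Foxo3 window no E-box and 31 CpG. Over all 32851 RefSeq promoters of this length the median was 6 CpG, 94.8% held fewer than Foxo3, and 66.2% held at least 1 E-box. Of the other members, Sohlh1 has 5 E-boxes, Figla, Nobox, Obox1 and Obox5 have 2 each and Lhx8 has 0. The homeobox sites TAATTA and TAATTG and the TATA box string TATAAA were searched as exact letters on both strands. They were found in none of the 9 member windows available and in 4.8%, 7.2% and 12.4% of all promoters. Variants, such as TATATAAG in the Obox1 and Obox5 sequences printed below, were not searched. A match of letters is a description and does not show that a factor binds.

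RNA libraries were scaled to totals of 1458868 to 2399680 reads. Across loci, log2 RPM correlated at 0.9718 to 0.9771 in the 10 pairs of libraries of 1 group and at 0.9515 to 0.9709 in the 45 pairs from different groups. The deleted genes were checked first. Ehmt1 RNA was 68.3 to 90.5 RPM in GKAQ controls and 17.7 and 21.3 RPM in cDKO (log2 difference -2.06, SE 0.20, limma adjusted p = 1.087e-21), while in G9a cKO it was 66.9 to 75.9 RPM against 54.5 to 80.2. Ehmt2 was low throughout, at 5.27 to 8.23 RPM in GKAO controls, 0.942 to 6.01 in G9a cKO, 5.03 to 12.5 in GKAQ controls and 2.85 and 2.96 in cDKO. Its differences of -1.55 and -1.45 did not pass the test (limma adjusted p = 0.0971 and 0.121), and 1 G9a cKO library lay within the range of its controls.

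The libraries had the markers of oocytes. All 14 oocyte markers on the list were measured, with summed levels of 17870 to 18150 RPM in GKAO controls, 18510 to 19150 in G9a cKO, 16270 to 16820 in GKAQ controls and 15970 to 16340 in cDKO. The 3 blood markers with a locus had 0 reads in all libraries, and 10 theca and stroma markers summed to 2.34 to 10.8 RPM. The 18 granulosa markers with a locus summed to 414.2 to 442.1 RPM in GKAO controls, 354.9 to 360.7 in G9a cKO, 382.1 to 416 in GKAQ controls and 356.9 to 372.4 in cDKO. Most of that was Hmgcs1, at a mean of 226 RPM, and Nr5a2, at 95.1 RPM, while the granulosa genes Amh and Foxl2 averaged 0.864 and 0.511 RPM. Of the 18, 2 were called higher in cDKO and 0 lower, where 4.32% of all loci were called higher. These were Fshr and Inha, with at most 16 and 17 reads a library, at 7.22 against 1.86 RPM and 8.46 against 2.14 RPM. The median log2 difference of the 18 was 0.11, while Hmgcs1 and Nr5a2 stood lower in cDKO without being called (-0.16 and -0.19). Inha was 6.42 RPM in GKAO controls, and the control groups differed (-1.88, limma adjusted p = 0.0145). Cyp19a1, the enzyme of oestrogen synthesis, stood at 47.2 RPM in GKAQ controls and 29.5 in cDKO (-0.71, limma adjusted p = 0.0546). Their part in the results below was not tested.

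A locus is described as called at a limma adjusted p under 0.05, with the Benjamini-Hochberg adjustment taken across the 38540 loci. Of the 9 members, cDKO showed 3 calls: Sohlh2 and Tbpl2 rose and Foxo3 fell. Among all loci, 4.32% were called higher in cDKO and 2.02% lower, and among the 9091 loci of at least 10 RPM 15.8% were called in either direction. In G9a cKO none of the 9 was called, against 1.79% of all loci (1.05% higher and 0.737% lower) and 5.22% of loci of at least 10 RPM. At an unadjusted p under 0.05, 2 members passed in G9a cKO and 5 in cDKO. The share of all loci at that cut is not given here, so these counts have no baseline and no excess is read from them. With precision weights on recovered reads, 1 of several alternatives run, 0 were called in G9a cKO and 2 in cDKO, Sohlh2 and Nobox. Without a variance trend or with log2(RPM + 1), only 1 was called in cDKO, Sohlh2.

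**Figure D1:**
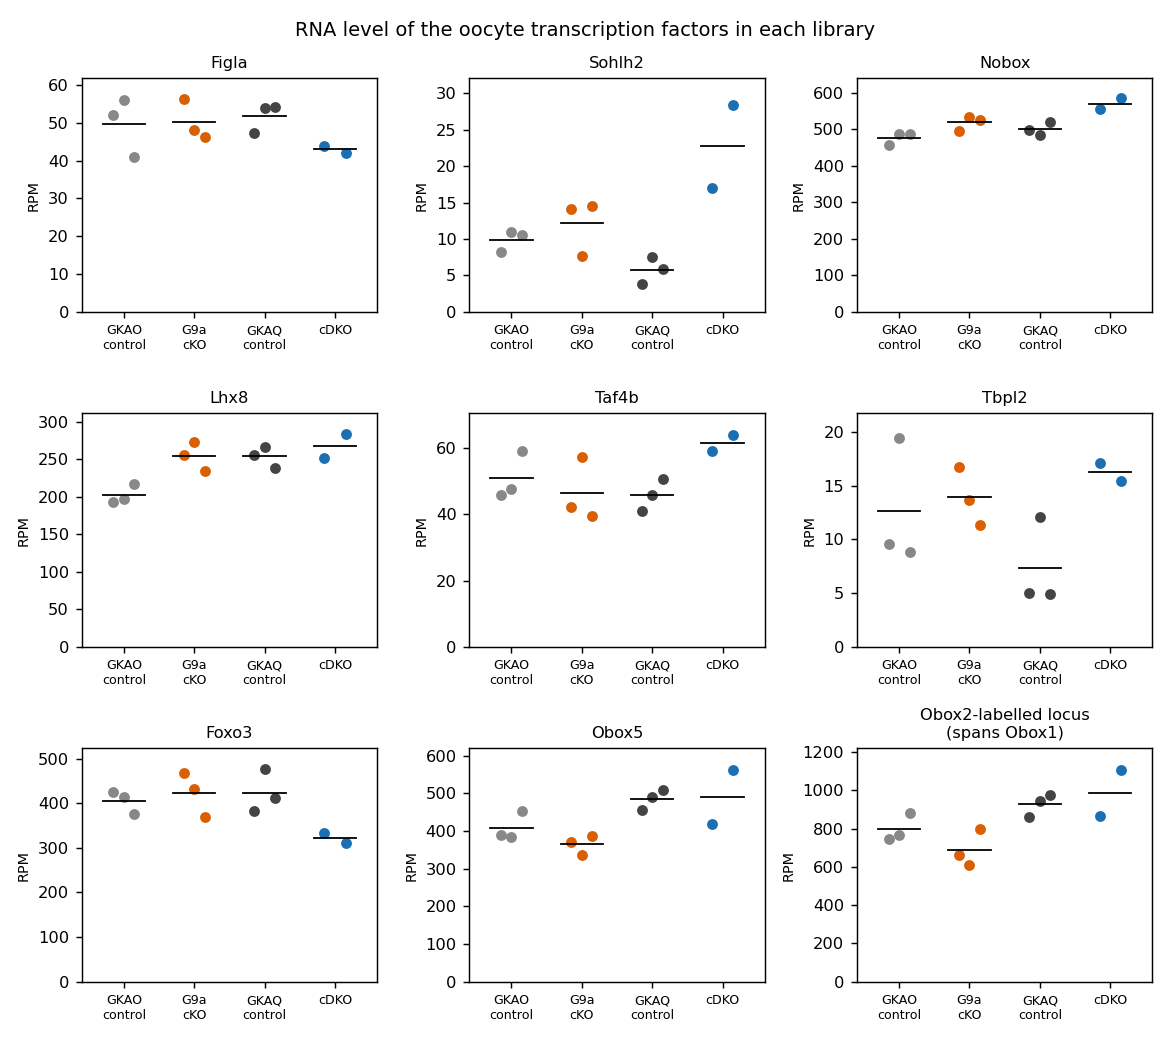
RNA level in reads per 1000000 (vertical axis, from 0) of 8 members and of the Obox2-labelled locus that spans Obox1, in the 11 libraries by group; each point is a library and each bar the mean of its group. Sohlh2 stands at 17.1 and 28.5 RPM in the cDKO libraries against 3.77 to 7.50 in GKAQ controls, and Foxo3 at 311.2 and 332.5 against 382.8 to 475.9.

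Sohlh2, known from resting and newly growing follicles, showed the largest change among the members. Its locus (TCONS_00064347, ENSMUSG00000027794) runs from 55181818 to 55209957 on the plus strand of chromosome 3, in the positions of the deposited table, and the submitters' processing notes name the build GRCm38. RNA was 8.23, 11 and 10.6 RPM in GKAO controls, 14.2, 7.65 and 14.6 in G9a cKO, 3.77, 7.50 and 5.92 in GKAQ controls, and 17.1 and 28.5 in cDKO. Both cDKO libraries lay above all 9 others, whereas G9a cKO overlapped its controls. These are low counts, 30 and 48 reads in cDKO and 6 to 18 in GKAQ controls.

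The rise in cDKO was 4.00-fold (log2 difference 2.00, SE 0.41, 95% interval 1.20 to 2.80, limma adjusted p = 7.518e-05). The GKAQ controls lay below the GKAO controls without passing the test (log2 difference -0.84, limma adjusted p = 0.279), and against all 6 controls the rise was 1.58. In G9a cKO the log2 difference was 0.24 (95% interval -0.47 to 0.96, limma adjusted p = 0.655). The effects in the 2 mutants differed by 1.76 (SE 0.55, limma adjusted p = 0.0901), so the rise was not shown to differ between them.

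Its partner Sohlh1, which is known from small follicles, was hardly seen. The locus (TCONS_00059882, from 25842995 to 25847340 on the minus strand of chromosome 2) had 0 or 1 read in each of the 11 libraries. A count of 0 allows up to 3 reads, or 1.25 to 2.06 RPM at these depths, counting error only, and no fold is given.

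Figla, the activator of the zona pellucida genes, was measured through a locus that is not its own alone. TCONS_00085178 runs from 86016157 to 86124404 on the plus strand of chromosome 6, a span of 108.2 kb, where RefSeq places Figla in 4.5 kb and also puts Add2 within the locus. Its values were 52.1, 56.0 and 41.0 RPM in GKAO controls, 56.4, 48.1 and 46.1 in G9a cKO, 47.1, 53.8 and 54.2 in GKAQ controls, and 43.8 and 42.1 in cDKO. Both cDKO libraries lay below their controls but above the lowest GKAO control. The differences were 0.02 in G9a cKO (95% interval -0.35 to 0.39) and -0.26 in cDKO (95% interval -0.68 to 0.15), with limma adjusted p = 0.951 and 0.565. Reads of Figla and Add2 cannot be told apart here.

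Nobox, a homeobox activator of Gdf9 and other oocyte genes, had at least 457.9 RPM in each library and was not called in either mutant. Its locus (TCONS_00087072) covers 43302170 to 43310109 on the minus strand of chromosome 6. RNA was 457.9, 486.0 and 487.5 RPM in GKAO controls and 496.4, 534.3 and 526.9 in G9a cKO. It was 497.1, 484.6 and 519.0 RPM in GKAQ controls and 554.6 and 585.7 in cDKO. Each mutant group lay wholly above its controls, by 1.09-fold and 1.14-fold.

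Neither Nobox difference passed the test. The log2 difference was 0.12 in G9a cKO (95% interval -0.03 to 0.27, limma adjusted p = 0.242) and 0.19 in cDKO (95% interval 0.02 to 0.35, limma adjusted p = 0.194). A locus on the other strand that overlaps the 5′ side of Nobox had 32.9 to 47.3 RPM and was called in neither mutant. Whether counting used the strand is not given in the sources used here.

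Lhx8, a LIM homeobox factor needed for oocyte growth, separated by title prefix as much as by genotype. Its locus (TCONS_00069038) covers 154303721 to 154330167 on the minus strand of chromosome 3. RNA was 192.6, 196.9 and 217.4 RPM in GKAO controls and 255.5, 273.1 and 234.0 in G9a cKO. In GKAQ controls it was 255.8, 266.7 and 238.6 RPM, and in cDKO 251.7 and 283.4.

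The 3 GKAO controls were therefore the lowest libraries, and the G9a cKO libraries reached the level of the GKAQ controls. The G9a cKO difference of 0.33 (SE 0.10) fell just short of the threshold (limma adjusted p = 0.0586), and the same difference of 0.33 between the controls of the 2 prefixes passed it (limma adjusted p = 0.0341). In cDKO the difference was 0.08 (95% interval -0.15 to 0.30, limma adjusted p = 0.669). Lhx8 was called in G9a cKO when only loci of at least 10 RPM were fitted (adjusted p = 0.0312) and without GKAO control 3 (adjusted p = 0.0429), cDKO library 1 (0.0356) or cDKO library 2 (0.0378).

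**Figure D2:**
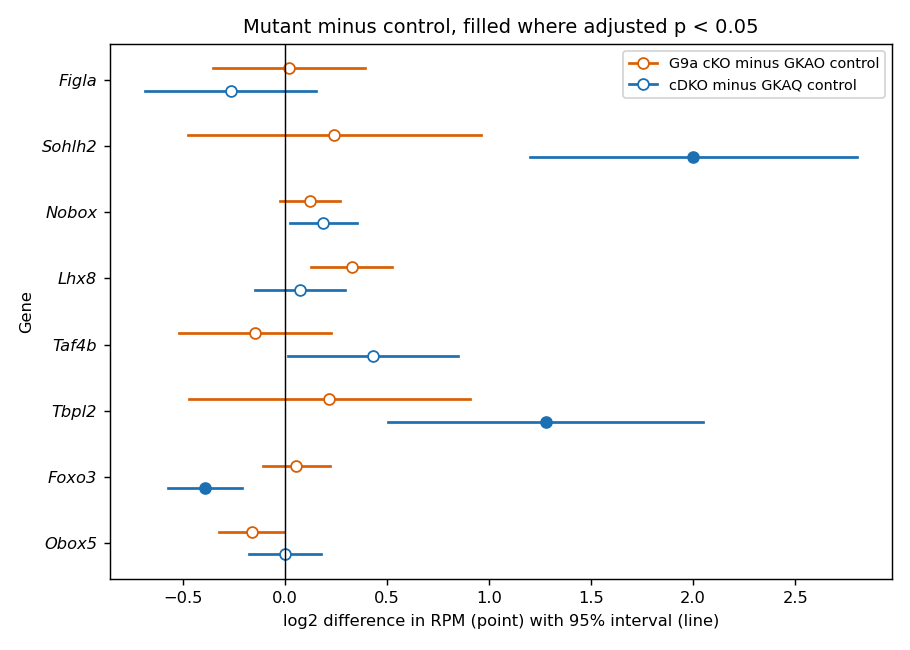
Log2 difference in RPM between mutant and control (horizontal axis) for the 8 members of at least 10 RPM, with the 95% interval of the limma model; filled points had an adjusted p under 0.05. Sohlh2 at 2.00, Tbpl2 at 1.28 and Foxo3 at -0.39 are filled for cDKO, and no point is filled for G9a cKO.

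Tbpl2, the oocyte counterpart of TBP, rose in cDKO from a low level. Its locus (TCONS_00059796) covers 24071367 to 24096806 on the minus strand of chromosome 2. RNA was 9.60, 19.4 and 8.79 RPM in GKAO controls, 16.7, 13.7 and 11.3 in G9a cKO, 5.03, 12.1 and 4.93 in GKAQ controls, and 17.1 and 15.4 in cDKO. The cDKO libraries lay above the GKAQ controls but within the range of the GKAO controls. The cDKO libraries held 30 and 26 reads and the GKAQ controls 8, 29 and 10.

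The rise was 2.43-fold (log2 difference 1.28, SE 0.39, 95% interval 0.51 to 2.05, limma adjusted p = 0.0236). The call was lost without GKAQ control 1 (adjusted p = 0.128), without GKAQ control 3 (0.158) and without cDKO library 1 (0.192) or 2 (0.0977), and at 0.87 against all 6 controls (0.191). The call was also lost without a variance trend (limma adjusted p = 0.237). In G9a cKO the difference was 0.22 (95% interval -0.47 to 0.91, limma adjusted p = 0.680).

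Taf4b, the TFIID subunit, was not called in either mutant. Its locus (TCONS_00049487, from 14783197 to 14901640 on the plus strand of chromosome 18) covers 66.8% of the RefSeq gene. RNA was 45.9, 47.7 and 59.2 RPM in GKAO controls, 42.2, 57.4 and 39.6 in G9a cKO, 40.9, 45.8 and 50.8 in GKAQ controls, and 59.2 and 64.0 in cDKO. The cDKO libraries lay above all GKAQ controls. The cDKO difference of 0.43 had a 95% interval of 0.02 to 0.85 but did not pass after adjustment (limma adjusted p = 0.277), and that in G9a cKO was -0.15 (limma adjusted p = 0.601).

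Foxo3, the brake on resting follicles, fell in cDKO. Its locus (TCONS_00012023, ENSMUSG00000048756) covers 42181830 to 42278320 on the minus strand of chromosome 10 and also holds the RefSeq gene Gm38485. RNA was 424.3, 413.7 and 376.2 RPM in GKAO controls and 467.6, 431.0 and 369.2 in G9a cKO. It was 382.8, 475.9 and 411.6 RPM in GKAQ controls and 332.5 and 311.2 in cDKO. The 2 cDKO libraries were the lowest of the 11. GKAQ controls averaged 423.4 ± 47.7 RPM (SD, n = 3) and cDKO libraries 321.9 ± 15.1 RPM (SD, n = 2).

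The fall was to 0.763 of the control level (log2 difference -0.39, SE 0.09, 95% interval -0.57 to -0.21, limma adjusted p = 0.00115). In G9a cKO the difference was 0.06 (95% interval -0.10 to 0.22, limma adjusted p = 0.642). The 2 effects differed by -0.45 (SE 0.12, limma adjusted p = 0.0361), the only member of the 9 for which this difference was called, where 0.685% of all loci were called in the higher direction and 0.397% in the lower, and 3.34% of loci of at least 10 RPM in either. That call was lost in 12 of 18 alternatives, among them precision weights (adjusted p = 0.249). Genotype and title prefix change together in that comparison and cannot be told apart. The cDKO call was lost without GKAQ control 2 (-0.30, adjusted p = 0.0745), the highest of the controls. It was also lost with precision weights (-0.41, adjusted p = 0.0838) and without a variance trend (adjusted p = 0.351).

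Obox5 and Obox1 lie in a cluster of related genes on chromosome 7 and share much of the sequence before their starts. The last 100 bases before each annotated start are given to show this, both on the plus strand, at chr7:15547157-15547256 for Obox1 and chr7:15750270-15750369 for Obox5. Capitals mark bases the other does not share in an alignment of the full windows.
Obox1: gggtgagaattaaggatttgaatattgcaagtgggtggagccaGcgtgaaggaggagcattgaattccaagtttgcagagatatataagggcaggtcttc
Obox5: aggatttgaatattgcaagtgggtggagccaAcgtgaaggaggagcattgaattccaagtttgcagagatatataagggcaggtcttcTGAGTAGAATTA

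Apart from a substituted base, the Obox5 window differs there by the 12 bases at its end, where its sequence runs on to its own annotated start. Over the whole windows of 250 bases 87.8% of the aligned positions were identical, against 44.1% for Obox1 and Obox2. How reads that match several copies were counted is not given in the sources used here, so values of Obox loci are uncertain.

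Obox5 (TCONS_00089481, from 15750377 to 15759800) had 388.7, 382.8 and 452.4 RPM in GKAO controls and 370.3, 336.5 and 385.6 in G9a cKO. It had 455.7, 490.5 and 507.7 RPM in GKAQ controls and 417.9 and 562.0 in cDKO. The 2 cDKO libraries lay on either side of their controls, and the mean difference was 0.00 (95% interval -0.17 to 0.18, limma adjusted p = 0.991). In G9a cKO it was -0.16 (95% interval -0.32 to -0.00, limma adjusted p = 0.230).

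Between the controls of the 2 prefixes, Obox5 was called higher in GKAQ by 0.25 (limma adjusted p = 0.0470). With Lhx8 that made 2 of 9 members called between control groups, where 1.96% of all loci were called higher and 1.91% lower, and 14.8% of loci of at least 10 RPM in either direction. The Lhx8 and Obox5 calls between controls were both lost with precision weights (limma adjusted p = 0.0569 and 0.278), without GKAO control 1 or 2 and without GKAQ control 2.

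Obox1 had no locus of its own symbol. RefSeq places it at chr7:15547257-15556846, inside a locus labelled Obox2 (TCONS_00089460) that runs from 15353960 to 15556866 and so spans several cluster genes. This locus had 744.4, 768.8 and 880.2 RPM in GKAO controls, 660.9, 611.8 and 800.9 in G9a cKO, 861.0, 945.1 and 974.0 in GKAQ controls, and 866.6 and 1105 in cDKO. It was called lower in G9a cKO by 0.21 (SE 0.06, limma adjusted p = 0.0401) although 1 G9a cKO library lay within the controls, and it was not called in cDKO (0.08, limma adjusted p = 0.565). The other family locus measured, labelled Obox3, was also called lower in G9a cKO, at 270.2 against 339.1 RPM (-0.34, SE 0.09, limma adjusted p = 0.0104). Among all loci 0.737% were called lower in G9a cKO. A locus labelled Obox3 also overlaps RefSeq Obox1. How reads of related copies were counted is not given, so the calls under the Obox2 and Obox3 labels need not be independent.

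Genes that these factors are known to switch on, or that mark the growing oocyte, were read from a list of 31, of which 26 had a locus and 25 reached 10 RPM. In G9a cKO 4 were called higher and 3 lower, all among the 25, where 5.22% of all loci of at least 10 RPM were called. In cDKO 7 were called higher and 7 lower, again all among the 25, where 15.8% of such loci were called. Between the controls of the 2 prefixes 3 genes of the list were called higher in GKAQ and 7 lower, where 14.8% of such loci were called. Most of the listed genes lie far above 10 RPM, where SEs are small, so these shares are not those of loci of like level. The median log2 differences over the 25 were -0.05 and 0.02, beside 0.01 and 0.05 over all loci of at least 10 RPM. In G9a cKO the maternal-effect gene Nlrp5 rose by 0.21 (SE 0.03) and Astl, the egg protease ovastacin, by 0.39 (SE 0.08). Dppa3, a maternal factor of the early embryo, fell by 0.36 (SE 0.07) and Rfpl4 fell by 0.46 (SE 0.08). Controls of the 2 prefixes differed more than that for Astl, at 647.5 RPM in GKAO and 252.9 in GKAQ controls. The same held for Dppa3, at 493.8 and 1017 RPM. Nlrp5 was also called between controls, lower in GKAQ (-0.13, limma adjusted p = 0.00599), and Rfpl4 was not (limma adjusted p = 0.454).

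Of the zona pellucida genes, the classical targets of FIGLA, Zp2 and Zp3 rose in cDKO and Zp1 was not called. Zp2 rose from 1411 RPM in GKAQ controls to 1764 in cDKO (log2 difference 0.32, SE 0.05, limma adjusted p = 2.847e-09) and Zp3 from 1057 to 1357 RPM (0.36, SE 0.06, limma adjusted p = 2.765e-08). Zp1 stood at 670.7 and 642.9 RPM (-0.06, limma adjusted p = 0.617). Controls of the 2 prefixes differed more than that, with Zp2 at 2893 RPM in GKAO and 1411 in GKAQ controls and Zp3 at 1694 and 1057 RPM.

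Of the 4 members of the list with the largest called changes in cDKO, 3 fell. Rspo2, a signal from the oocyte to its follicle cells, fell by 0.63 (SE 0.07), Dazl, an RNA-binding protein of germ cells, fell by 0.59 (SE 0.14), and the DNA methyltransferase gene Dnmt1 fell by 0.58 (SE 0.03). Ddx4, a germ cell RNA helicase, rose by 0.46 (SE 0.15). Gdf9, a growth factor gene known as a NOBOX target, fell from 4461 to 3720 RPM (-0.26, SE 0.04, limma adjusted p = 1.087e-09). The GKAO controls stood at 3820 RPM for Gdf9 and 796.4 RPM for Rspo2, which was 1025 in GKAQ controls and 664 in cDKO, and both genes were called higher in GKAQ than in GKAO controls (0.22 and 0.36, limma adjusted p = 9.232e-09 and 8.502e-07). The NOBOX targets Pou5f1 and Mos stood at 231.9 and 242.8 RPM and at 166 and 186.7 RPM in GKAQ controls and cDKO and were not called.

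Around FOXO3, the list of PI3K, AKT and FOXO genes had 21 of 24 members with a locus. In G9a cKO 0 were called by limma. In cDKO 3 were called lower and 0 higher, all 3 among the 19 of at least 10 RPM, a share near the 15.8% of all such loci that were called. The median log2 differences over the 19 were 0.09 in G9a cKO and 0.06 in cDKO. Cdkn1b, the cell cycle inhibitor p27, stood at 21.6 RPM in GKAQ controls and 11.03 in cDKO and fell by 0.97 (SE 0.31, limma adjusted p = 0.0354). Mtor, the growth kinase, fell by 0.47 (SE 0.14, limma adjusted p = 0.0199). Kit, the receptor whose signal expels FOXO3, fell from 587.8 to 450.7 RPM, a fall by 0.38 (SE 0.08, limma adjusted p = 0.000186).

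Kit was also the member of that list for which the effects in the 2 mutants differed (-0.48, SE 0.11, limma adjusted p = 0.00300). The FOXO3 relative Foxo1 stood at 240.9 RPM in GKAO controls, 288.3 in G9a cKO, 251.4 in GKAQ controls and 266.7 in cDKO, and was not called in either mutant (limma adjusted p = 0.219 and 0.617). Akt1 and Tsc1 were likewise not called, and Akt1 came closest in cDKO at 0.43 (SE 0.15, limma adjusted p = 0.0539).

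TBPL2 and TAF4B work with the general transcription machinery. Of 22 listed genes of TFIID, TFIIA and TFIIB, 16 had a locus. None was called in G9a cKO and 1 was called higher in cDKO, among 14 of at least 10 RPM, where 15.8% of such loci were called. The medians over the 14 were 0.08 and 0.17, beside 0.01 and 0.05 over all loci of at least 10 RPM. That gene was Gtf2b, which encodes TFIIB, at 272.6 RPM in GKAQ controls and 365 in cDKO (0.41, SE 0.11, limma adjusted p = 0.00872), but its controls also differed by prefix, with 186.5 RPM in GKAO controls (0.55, limma adjusted p = 7.255e-06). Tbp stood at 129.7 and 135.6 RPM in GKAQ controls and cDKO, and was not called.

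Dimer partners and cofactors of the helix-loop-helix and LIM proteins were represented by 15 of 16 listed genes, 5 of them at 10 RPM or more. None was called in G9a cKO, where 1.79% of all loci were called. None of the 5 was called in cDKO either. Of the 15, 1 was called higher in cDKO, where 4.32% of all loci were called higher. That gene was Lmo4, a LIM-only adaptor below 10 RPM on average and named here after its values were seen, at 2.12 RPM in GKAQ controls and 24.95 in cDKO (3.65, SE 0.58, limma adjusted p = 7.036e-08). It stood at 2.29 RPM in GKAO controls and 6.27 in G9a cKO (1.63, SE 0.52, limma adjusted p = 0.0802). Tcf3, the E protein that pairs with FIGLA, and Ldb1, the cofactor of LIM homeobox proteins, were not called in either mutant.

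**Figure D3:**
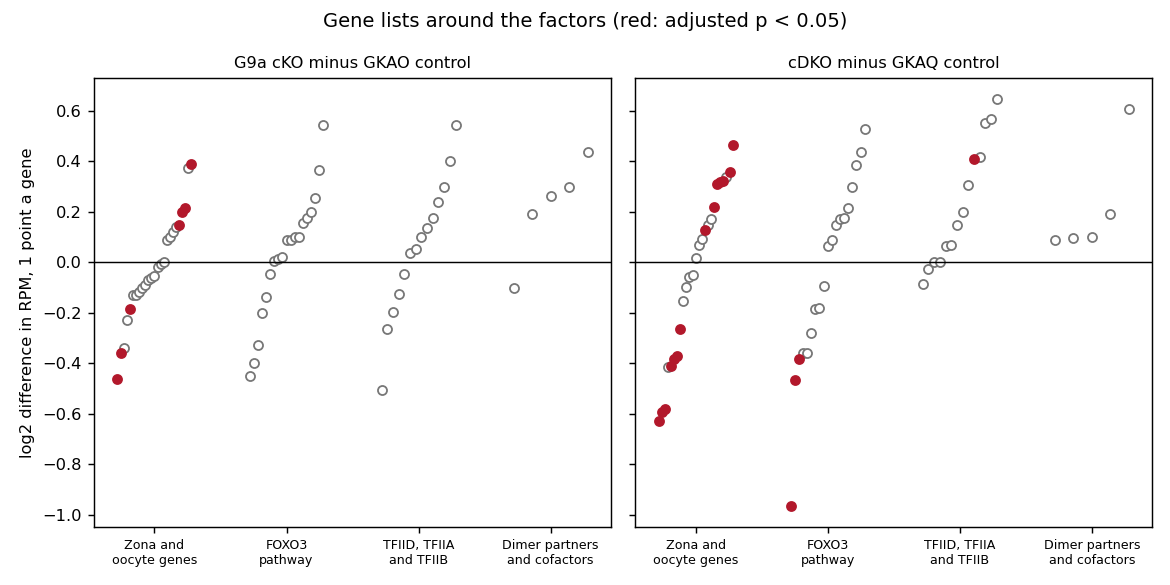
Log2 difference in RPM (vertical axis) of each listed gene of at least 10 RPM, ranked within its list, for G9a cKO on the left and cDKO on the right; red points had an adjusted p under 0.05. In cDKO the 3 red FOXO3 pathway points are Cdkn1b at -0.97, Mtor at -0.47 and Kit at -0.38, and in G9a cKO no point of that list is red.

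For each of the 8 members of at least 10 RPM, the gene with the most similar log2 values over the 11 libraries was sought among 6940 loci. Each r is the highest found in that search over only 11 libraries, and picking the highest raises it. The libraries also share groups and depth, so the correlations are a description only. Pearson r was 0.9407 for Sohlh2 with Rttn, 0.9458 for Tbpl2 with Lrch4 and 0.9017 for Foxo3 with Pabpc1l. It was 0.9326 for Figla with Safb2, 0.9325 for Nobox with Ncald, 0.9476 for Lhx8 with Atp2b1, 0.889 for Taf4b with Zfp703 and 0.9752 for Obox5 with C030039L03Rik.

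H3K9me2 over the same genes came from 2 libraries each of control, G9a cKO and cDKO oocytes, as reads in windows of 10 kb. Depth differed widely, from 1109191 reads in a G9a cKO library to 19128883 in a control, and scaling to the library total hides any change in the total amount of the mark. The 10 members overlapped 51 windows. In G9a cKO 1 of the 51 was called, where 1.85% of 255057 windows were called. There 9 had an unadjusted p under 0.05, 3 of them over the Figla locus. In cDKO 0 were called by limma, where 0% of windows were, and 5 had an unadjusted p under 0.05. The share of all windows at that unadjusted cut is not given here, so these counts have no baseline. Neighbouring windows of a locus are not separate members.

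The called window, chr7:15540001-15550000 over the start of Obox1, held 1 read in either control and 0 reads in either G9a cKO library. Empty windows take a value set by depth, and no fold is given. H3K9me2 reads over this copy were few in every library, at 7.17% to 72.0% of the mean over all windows.

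At Sohlh2 the lowest H3K9me2 values were those of G9a cKO. Mean H3K9me2 over its 3 windows was 4.21 and 4.83 RPM in controls, against 2.33 and 1.20 for G9a cKO and 3.68 and 4.43 for cDKO. The window that holds the start printed above, chr3:55180001-55190000, had 33 and 85 reads in controls but 3 and 0 under G9a cKO, and 5 and 3 under cDKO. In RPM these were 4.68 and 4.44, 1.62 and 0, and 2.90 and 1.59, so all 4 mutant libraries lay below both controls.

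These differences did not pass the test. The start window gave limma adjusted p = 0.141 in G9a cKO and 0.659 in cDKO, and the next window, where controls had 32 and 102 reads and G9a cKO libraries 1 each, gave -2.82 (SE 0.64, limma adjusted p = 0.0514). In cDKO that window held 5 and 11 reads, 2.90 and 5.85 RPM against 4.54 and 5.33 in controls. A low start window in G9a cKO was not particular to Sohlh2. The window over the annotated start of Taf4b, chr18:14780001-14790000, gave -2.57 in G9a cKO (SE 0.63, limma adjusted p = 0.0640). In cDKO the Taf4b start window gave -0.45 (limma adjusted p = 0.865).

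Over Foxo3 both cDKO libraries lay above both controls in H3K9me2, at 6.09 and 4.73 RPM a window against 3.55 and 3.39, and in G9a cKO it was 4.95 and 3.52. None of its 10 windows was called in either mutant, and 2 had an unadjusted p under 0.05 in cDKO. Over Tbpl2 the means were 3.31 and 2.84 RPM in controls, against 3.05 and 2.40 for G9a cKO and 4.06 and 5.49 for cDKO, again with no window called. Over the Figla locus, whose RNA did not pass the test, they were 4.27 and 4.33 RPM in controls, against 6.55 and 6.24 for G9a cKO and 5.37 and 5.14 for cDKO. In G9a cKO the highest differences there lay between 86040001 and 86070000 (1.41, 1.44 and 1.17), outside RefSeq Figla. The windows that hold RefSeq Figla, from 86010001 to 86030000, gave -0.43 and 0.77. No window of the locus was called in either mutant. With 2 libraries a group and no window called over Sohlh2, Tbpl2, Foxo3 or the Figla locus, any link between H3K9me2 and RNA was not tested.

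**Figure D4:**
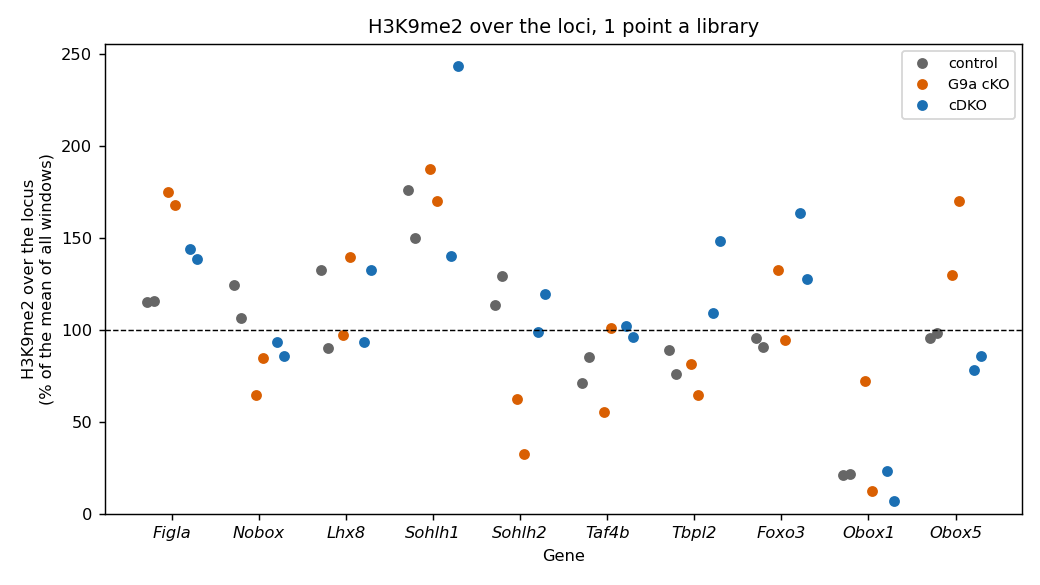
H3K9me2 over the locus of each of the 10 genes as a percentage of the mean of all windows in the same library. The vertical axis starts at 0, the dashed line is at 100, and each of the 6 libraries has 1 point. The Figla locus also holds Add2, and Obox1 is shown over its RefSeq span. Sohlh2 is at 62.4% and 32.4% in G9a cKO against 113.4% and 129.3% in controls, and Foxo3 at 163.7% and 127.5% in cDKO against 95.5% and 90.9%.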

How the data were processed

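RNA-seq in 11 libraries and H3K9me2 chromatin immunoprecipitation in 6 were analysed, of 40 samples in the series. The authors deposited both tables as log2 values with 1 column a library, and per the file headers neither names its unit. Undoing the logarithm gave whole multiples of 1 step in every library (within 0.1 read, for 100% of values), so the unit was taken to be log2 of reads per 1000000 of a library total, with empty rows set at 0.9 read. The submitters' processing notes name GRCm38, Trim Galore, Bowtie2, HISAT2 2.1.0 and Bismark 0.19.0 without their roles. The counting method is not given in the sources used here, nor is whether it used the strand. Of the H3K9me2 columns, 4 match no sample and were not used.

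A mean per group was fitted to the log2 values of all 38540 loci with limma 3.58.1 in R 4.3.3 (variance trend, robust), with no pseudocount. Two-sided p-values were adjusted (Benjamini-Hochberg) across the loci of a comparison, with a threshold of 0.05. Intervals of differences are those of the model and rest on the same shared spread as the p-values. The 255057 windows of 10 kb with a read in at least 1 library were fitted the same way, leaving out windows that are empty throughout. The fit was tested on simulated data. Whole reads were recovered only to give read counts and precision weights. Figures used Python 3.11.15 with matplotlib 3.10.9. Promoters were the 250 bases before the start in RefSeq of GRCm38.p6, aligned globally for the Obox genes; the Taf4b promoter was not used here.

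All members are named, with up to 4 called genes of at least 10 RPM from each list and comparison, by size of change, and the 1 most similar gene for each member. The zona pellucida, Gdf9, Pou5f1, Mos, Foxo1, Akt1, Tsc1, Tbp, Tcf3, Ldb1, Lmo4, Fshr, Inha and Cyp19a1 genes fall outside this rule and were chosen after their values were seen. The members and lists were chosen with earlier results of these data known. Alternatives were other variance models, low-value filters, centring, a pseudocount of 1, precision weights, pooled controls, the title number as a block, and leaving out each library.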

Additional observations from a re-analysis of the deposited data

Results flagged for a closer look

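The Foxo3 effect differed between the mutants by a test of the difference itself. The change in cDKO minus the change in G9a cKO was -0.45 on the log2 scale (SE 0.12, limma adjusted p = 0.0361), from -0.39 in cDKO and 0.06 in G9a cKO. Both cDKO libraries were below all 3 of their controls, and the G9a cKO libraries lay on either side of theirs. The call held in 6 of 18 alternatives, and the title prefix differs between the mutants in the same way as the genotype, so the 2 cannot be told apart.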

How the results depend on the processing

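The Sohlh2 rise in cDKO held its call in 19 of 20 alternatives, with values of 1.58 to 2.37, the exception being the title number as a replicate block. The Foxo3 fall held in 16 of 20 and was lost without a variance trend (adjusted p = 0.351), with log2(RPM + 1) (0.150), with precision weights (0.0838) and without GKAQ control 2 (0.0745). The Tbpl2 rise held in 11 of 20. The count of members called in cDKO, 3, became 1 without a variance trend, with log2(RPM + 1) or with the replicate block, and was 2 to 3 with a library left out. In G9a cKO the count of 0 became 1 against pooled controls (Obox5) and 1 on loci of at least 10 RPM (Lhx8), and was 0 to 1 with a library left out. The 1 member called for the difference between effects became 0 without a variance trend, on loci of at least 10 RPM, with log2(RPM + 1) or with precision weights, and ranged from 0 to 3 with a library left out. Without robust variances the count was 1, but Foxo3 was lost (adjusted p = 0.0609) and Sohlh2 passed (0.0477). The value of 3 came without GKAQ control 1, a fit that called 14705 loci in all. The 2 members called between controls became 1 without robust variances, on loci of at least 10 RPM or after centring, 0 without a variance trend, with log2(RPM + 1) or with precision weights, and 0 to 2 with a library left out. The cause was not tested.

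Signs turned only for values that passed no test. With pooled controls Figla in G9a cKO was -0.0123. After centring it was -0.0027, and in cDKO Lhx8 was -0.0186 and Obox5 -0.0927, while the Nobox difference between effects was -0.0038. With precision weights Obox5 in cDKO was -0.0123, and with the replicate block the Tbpl2 difference between effects was -0.0447. Leaving out a library gave ranges of -0.11 to 0.11 for Figla and -0.0191 to 0.1514 for Foxo3 in G9a cKO, and of -0.01 to 0.16 for Lhx8 and -0.21 to 0.22 for Obox5 in cDKO. It gave -0.0501 to 0.3772 for the Obox5 difference between effects, and -0.0664 to 0.1586 for Figla and -0.0263 to 0.1308 for Foxo3 between controls.

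The labels do not say what the title number used as a replicate block stands for. In GKAO both title numbers hold both genotypes, but in GKAQ only 1 of 4 does, so the blocked cDKO values rest on 1 control and 1 cDKO library, assumed to vary like the rest. They were 1.92 for Sohlh2 (adjusted p = 0.107), 0.35 for Tbpl2 (0.708) and -0.61 for Foxo3 (0.00139). The H3K9me2 windows called in G9a cKO, 1 of 51, became 5 over all windows of the table, 3 after centring and 0 with log2(RPM + 0.1), and 0 to 2 with a library left out. In cDKO the 0 became 1 over all windows and 0 to 1 with a library left out. Depth limits Sohlh2, Tbpl2 and Ehmt2, which had at most 48, 40 and 30 reads a library, and H3K9me2 in the mutants.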
